A study of Mus musculus with 10 samples.

Results

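The genes described here were 10 genes of lymphocyte homing to the gut and of leukocyte adhesion to vessel walls, namely Madcam1, Vcam1, Icam1, Sele, Selp, Itga4, Itgb7, Itgae, Itgal and Ccr9. They were chosen by name and found by gene symbol among the 56691 genes of a colon RNA sequencing table, where each symbol had 1 row. The study asked how chick early amniotic fluid (ceAF), the fluid around young chick embryos, altered gene expression in the colon of mice with chemically induced colitis. All 10 mice were male C57/BL6 animals aged 8 weeks that had drunk 3% dextran sulfate sodium (DSS), a polysaccharide that injures the colon epithelium, for 7 days. The 5 mice of the DSS group received no further agent, and the 5 mice of the ceAF group were then gavaged with ceAF at 15 mL/kg for 10 days. The study describes no gavage of the DSS group, so ceAF and the gavage itself cannot be told apart. Its text compares both groups during the days of gavage but names no day of colon collection. Mice without DSS and mice given mesalazine belonged to the study but were not analysed here, so the level of these genes in an uninjured colon is not known here.

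Lymphocytes leave the blood in steps. Selectins on the vessel wall slow the passing cell, chemokines held on the endothelium activate its integrins, and the activated integrins bind immunoglobulin-type ligands so that the cell stops and crosses the wall. In the gut the address molecule MAdCAM-1 on the venules of the lamina propria binds the integrin of the α4 and β7 chains, which is the step targeted by the antibody vedolizumab in ulcerative colitis.

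The deposited table held whole-number counts of poly(A) RNA from bulk colon tissue. Library totals ran from 16275884 to 19901549 counts for DSS mice (median 16426125) and from 14676471 to 18811795 for ceAF mice (median 16058782). Levels of a single gene are given in CPM, TMM-scaled counts relative to library size, and levels of different genes are compared only in the deposited FPKM, which divide by gene length. Of 8 colon markers none was at 0, with Car1, a colonocyte carbonic anhydrase, most abundant at a median of 1760 FPKM, although Car1 ran from 115 CPM in DSS-5 to 11900 CPM in ceAF-1. Of 8 markers of the small intestine, Lct, Apoa4, Apoa1 and Defa24 were at 0 in some mice, while Fabp2 was at a median of 205 FPKM, Slc10a2 at 16.1 and Fabp6 at 14.4. The summed small intestine markers reached 1253 CPM in ceAF-1 and 661 CPM in DSS-2, and the lowest mouse, DSS-5, had 72.5 CPM. Replicates were separate samples by their labels, and nothing in the labels says more of their source. Each sample is counted here as a separate mouse. The p-values set the group difference against the spread between these samples.

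By their cell type markers, several libraries stood apart from the others of their group. DSS-1 had 1624 summed CPM of 7 neutrophil markers where the other DSS mice had 16.4 to 177, and 275 summed CPM of 9 B cell markers, where they had 35.6 to 47.0. DSS-5 had 99.8 summed CPM of 17 T cell markers, below the 240.3 to 264 of its group. ceAF-1 was the lowest library for 12 markers of blood endothelium, with 42.0 summed CPM, and ceAF-4 was the highest, with 160.4. The other ceAF mice had 76.8 to 86.9.

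The 9 of 10 adhesion genes with enough counts to be tested were all lower on average in ceAF than in DSS mice. Their median log2 fold change was −0.58, while 48.6% of the 16545 genes tested were lower and their median was 0.01. None of the 9 passed a Benjamini-Hochberg adjusted p of 0.05 in the edgeR quasi-likelihood test, and neither did any other gene (0 of 16545, 0%). At an unadjusted p under 0.05, the integrin genes Itgb7 and Itgal were called, 2 of 9, both lower, beside 1146 of 16545 genes (6.93%) in either direction and 607 (3.67%) lower. DESeq2 called 31 genes at an adjusted p under 0.05 and limma voom called 0, and none of the 10 adhesion genes was among the 31. The values of the DSS and ceAF mice overlapped for all 10 genes, and groups that did not overlap were found for 1.24% of the genes tested. In bulk tissue, fewer cells that carry a transcript and less transcript per cell cannot be told apart.

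**Figure D1:**
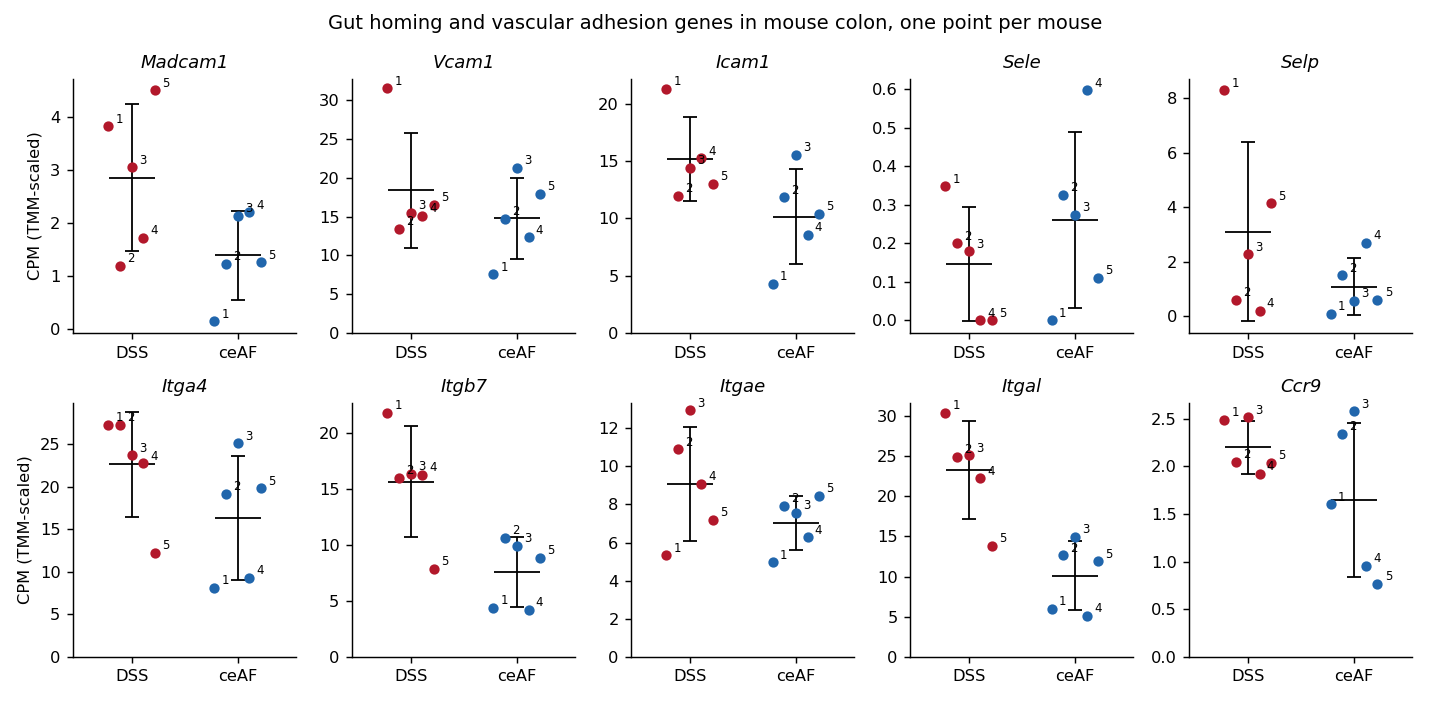
Levels of the 10 genes in CPM (TMM-scaled, linear axes) in the colon of 5 DSS and 5 ceAF mice, with each mouse as a numbered point and the group mean ± SD in black. Itgal and Itgb7 had 4 DSS mice above every ceAF mouse, and DSS-5 lay within the ceAF range.

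Madcam1 (ENSMUSG00000020310, chromosome 10) encodes the mucosal addressin, the vessel ligand for the integrin of Itga4 and Itgb7. Its level was 3.82, 1.20, 3.05, 1.73 and 4.50 CPM in DSS-1 to DSS-5 and 0.153, 1.24, 2.14, 2.21 and 1.26 CPM in ceAF-1 to ceAF-5. DSS-1, DSS-3 and DSS-5 were above every ceAF mouse, DSS-2 and DSS-4 were within the ceAF range, and ceAF-1 had almost no transcript, with 2 counts. The group means were 2.86 ± 1.39 and 1.40 ± 0.836 CPM (SD, n = 5 each), with a log2 fold change of −1.01 (SE 0.536, 95% interval −2.19 to 0.17, p = 0.0861, adjusted p = 0.740 in the edgeR test, exact two-sided permutation p = 0.111). It was −0.74 without ceAF-1 and −0.40 with limma voom and sample quality weights, short of an unadjusted p of 0.05 in each case, so the difference did not exceed the spread between mice.

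Icam1 encodes the ligand of LFA-1, the integrin that contains the Itgal chain, and is present on endothelium and on many activated cells. The DSS mice had 21.3, 12.0, 14.4, 15.2 and 13.0 CPM of Icam1 and the ceAF mice had 4.27, 11.8, 15.6, 8.59 and 10.4 CPM. DSS-1 was the highest and ceAF-1 the lowest of the 10 mice, and ceAF-3 was above 4 of the DSS mice. Means were 15.2 ± 3.65 and 10.1 ± 4.16 CPM (SD, n = 5 each), and the log2 fold change was −0.58 (SE 0.293, 95% interval −1.23 to 0.06, p = 0.0728, adjusted p = 0.739 in the edgeR test, exact two-sided permutation p = 0.0714). Without DSS-1 and ceAF-1, a choice made after seeing the data, it was −0.24, with the unadjusted edgeR p again above 0.05, and without ceAF-3 it was −0.78, with that p under 0.05.

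Vcam1, whose product is the ligand of the integrin of Itga4 and Itgb1 on inflamed endothelium, was the vascular ligand with the smallest difference. It ranged from 13.4 to 31.6 CPM in DSS mice and from 7.55 to 21.3 CPM in ceAF mice, with a log2 fold change of −0.32 (SE 0.300, 95% interval −0.98 to 0.34, adjusted p = 0.877 in the edgeR test, exact two-sided permutation p = 0.397). Again DSS-1 was highest and ceAF-1 lowest, and the other 8 mice lay between 12.3 and 21.3 CPM. The direction rested on those libraries, since the log2 fold change was −0.03 without DSS-1 and 0.13 without DSS-1 and ceAF-1, the latter chosen after seeing the data, and it was 0.05 with limma voom and sample quality weights.

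The endothelial selectins were scarce in these colons. Sele, E-selectin, had 6, 4, 3, 0 and 0 counts in DSS mice and 0, 5, 5, 10 and 2 counts in ceAF mice, too few to be tested in the fit, with means of 0.145 CPM for DSS and 0.261 CPM for ceAF mice, the only 1 of the 10 genes with the higher mean in ceAF mice, and a difference was not detectable at this depth (exact two-sided permutation p = 0.452 on log2 CPM, n = 5 each). Selp, P-selectin, which endothelial cells and platelets hold in storage granules, was at 8.29, 0.600, 2.27, 0.192 and 4.14 CPM in DSS mice and at 0.0763, 1.497, 0.548, 2.68 and 0.605 CPM in ceAF mice. The spread within the DSS group alone, from 3 counts in DSS-4 to 143 in DSS-1, covered nearly the whole range of both groups. The Selp log2 fold change of −1.50 had the widest interval of the 9 tested genes, −3.51 to 0.50 (SE 0.911, adjusted p = 0.765 in the edgeR test, exact two-sided permutation p = 0.341), and it was −0.72 without DSS-1 and −0.06 with limma voom.

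The vascular genes were also set against 12 markers of blood endothelium in the same mouse, of which 10 were lower in the ceAF group and 1, the tight junction gene Cldn5, had an unadjusted p under 0.05 in the edgeR test (median log2 fold change −0.31, most abundant gene Plvap at 10.4 FPKM, none at 0). The median was −0.16 without DSS-1 (8 lower) and −0.13 without ceAF-1 (9 lower), and without both, a choice made after seeing the data, 5 markers were lower and 7 higher (median 0.03). The summed markers were 153, 91.2, 89.6, 123 and 90.8 CPM in DSS-1 to DSS-5 and 42.0, 80.2, 86.9, 160.4 and 76.8 CPM in ceAF-1 to ceAF-5. Relative to the mean log2 CPM of these markers, the ceAF group minus the DSS group was 0.08 for Vcam1, −0.26 for Icam1, −0.76 for Selp and −0.81 for Madcam1, and 1.06 for Sele with its few counts. Single mice weighed on these values, which were not recomputed without them. In ceAF-4, Icam1 stood at −0.11 and Vcam1 at 0.411, against 0.887 to 1.617 and 1.685 to 2.066 in the other ceAF mice. Madcam1 stood at −3.465 in ceAF-1, against −2.042 to −1.213 in the others. Selp ran from −4.756 in DSS-4 to −0.113 in DSS-1. The groups overlapped for each of these genes on that scale too. Icam1 followed the markers closely within the DSS group, where its distance from them had an SD of 0.05 log2 units, whereas that SD was 0.67 in the ceAF group (n = 5 each), with ceAF-4 lowest. Other markers also varied with these genes over the 10 mice, with Pearson's r of 0.84 between Madcam1 and the mean of 7 fibroblast markers (most abundant Col3a1, 21 FPKM, log2 fold change −0.02), against 0.81 for blood endothelium, and 0.92 between Vcam1 and the 9 B cell markers (most abundant Cd79a, 6.56 FPKM, −0.73, and 0.17 without DSS-1). ceAF-1 was the lowest mouse for Madcam1 and Vcam1 and for the means of these marker lists. These r values lean in part on that library, and r without it was not computed. Between Madcam1 and Vcam1, r was 0.76 over the 10 mice. It was 0.15 without DSS-1 and ceAF-1, a choice made after seeing the data. The fibroblast markers were lower for 7 of 7 genes (median −0.21), and for 3 of 7 without DSS-1 (median 0.01). The B cell markers were lower for 9 of 9 genes (median −0.65), and higher for 9 of 9 without DSS-1 (median 0.61). The part of vessel, stromal or B cell content in these differences was not tested.

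Among the leukocyte genes, Itgal (ENSMUSG00000030830, chromosome 7) differed most. It encodes the αL chain, which pairs with the Itgb2 product to form LFA-1. Itgal was at 30.4, 24.9, 25.1, 22.2 and 13.8 CPM in DSS-1 to DSS-5 and at 5.95, 12.6, 14.97, 5.13 and 11.9 CPM in ceAF-1 to ceAF-5. Only DSS-5 lay within the ceAF range, below ceAF-3, and the other DSS mice were all above 22 CPM. Mean levels were 23.3 ± 6.06 and 10.1 ± 4.34 CPM (SD, n = 5 each), so that the ceAF mean was 43.4% of the DSS mean. The log2 fold change was −1.20 (SE 0.312, 95% interval −1.89 to −0.51, p = 0.00272, adjusted p = 0.656 in the edgeR test), and the exact two-sided permutation p was 0.0159, where 0.00794 is the smallest that 5 against 5 mice can give.

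Itgb7 (ENSMUSG00000001281, chromosome 15) encodes the β7 chain shared by the MAdCAM-1 receptor and by the integrin of Itgae. Its level was 21.8, 16.0, 16.3, 16.3 and 7.86 CPM in DSS-1 to DSS-5 and 4.35, 10.6, 9.93, 4.18 and 8.85 CPM in ceAF-1 to ceAF-5. The pattern over mice was that of Itgal, with 4 DSS mice above all ceAF mice, DSS-5 among the ceAF mice, and ceAF-1 and ceAF-4 lowest. The means were 15.7 ± 4.98 and 7.58 ± 3.10 CPM (SD, n = 5 each), the ceAF mean was 48.4% of the DSS mean, and the log2 fold change was −1.04 (SE 0.327, 95% interval −1.76 to −0.32, p = 0.00868, adjusted p = 0.656 in the edgeR test, exact two-sided permutation p = 0.0317). Across 19 other processing choices, including each mouse left out in turn, the unadjusted p of both Itgb7 and Itgal stayed under 0.05 in 19 of 19. The lowest adjusted p reached was 0.203 for Itgb7 and 0.0805 for Itgal, both with DESeq2. The highest was 0.9999 for both genes, in the edgeR test without DSS-1. Without DSS-1, DSS-5 and ceAF-1 in turn, the log2 fold change of Itgal was −1.08, −1.32 and −1.06 and that of Itgb7 was −0.89, −1.19 and −0.90.

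Itga4 (ENSMUSG00000027009, chromosome 2) encodes the α4 chain, which pairs with β7 to bind MAdCAM-1 and with β1 to bind VCAM-1. The DSS mice had 27.2, 27.3, 23.6, 22.7 and 12.2 CPM of Itga4, and the ceAF mice had 8.09, 19.1, 25.1, 9.31 and 19.8 CPM. DSS-5 was far below the other DSS mice, and ceAF-1 and ceAF-4 were below the other ceAF mice, of which ceAF-3 reached the level of the DSS group. The log2 fold change was −0.47 (SE 0.325, 95% interval −1.19 to 0.24, adjusted p = 0.809 in the edgeR test, exact two-sided permutation p = 0.190), and it was −0.30 without ceAF-1, −0.31 without ceAF-4 and −0.67 without ceAF-3.

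The levels of the partner chains were also set against each other as a ratio of FPKM within each mouse, which does not depend on library size. The size of such a ratio depends on the exonic lengths used, 2770 bases for Itgb7 and 13978 for Itga4. Its log2 difference between groups does not. The Itgb7 to Itga4 ratio was 4.04, 2.96, 3.48, 3.61 and 3.24 in DSS-1 to DSS-5 and 2.69, 2.80, 1.99, 2.28 and 2.25 in ceAF-1 to ceAF-5. Every DSS mouse, DSS-5 included, was above every ceAF mouse. The mean ratio was 3.47 ± 0.408 for DSS and 2.40 ± 0.335 for ceAF mice (SD, n = 5 each). This ratio was formed after Itgb7 had been seen to differ more than Itga4 in these mice, so it describes that difference, and the permutation test that was run on it in the same mice is not used. Leaving out each mouse in turn moved the log2 difference of the ratio, −0.53, between −0.59 and −0.47.

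For 5 other ratios, also chosen after the levels had been seen, the groups overlapped. The Itgal to Itgb7 ratio was 0.642 ± 0.0655 in DSS and 0.561 ± 0.0524 in ceAF mice (SD, n = 5 each). The ratio of Itgb7 to Itgae was 3.21 ± 2.03 and 1.73 ± 0.476, and 6.75 in DSS-1 alone. The mean ratio of Itgae to Itga4 was 1.30 ± 0.468 and 1.48 ± 0.472, that of Itgb2 to Itgal was 2.40 ± 0.636 and 2.86 ± 0.573, and that of Itgb1 to Itga4 was 62.6 ± 22.9 and 87.5 ± 51.9.

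**Figure D2:**
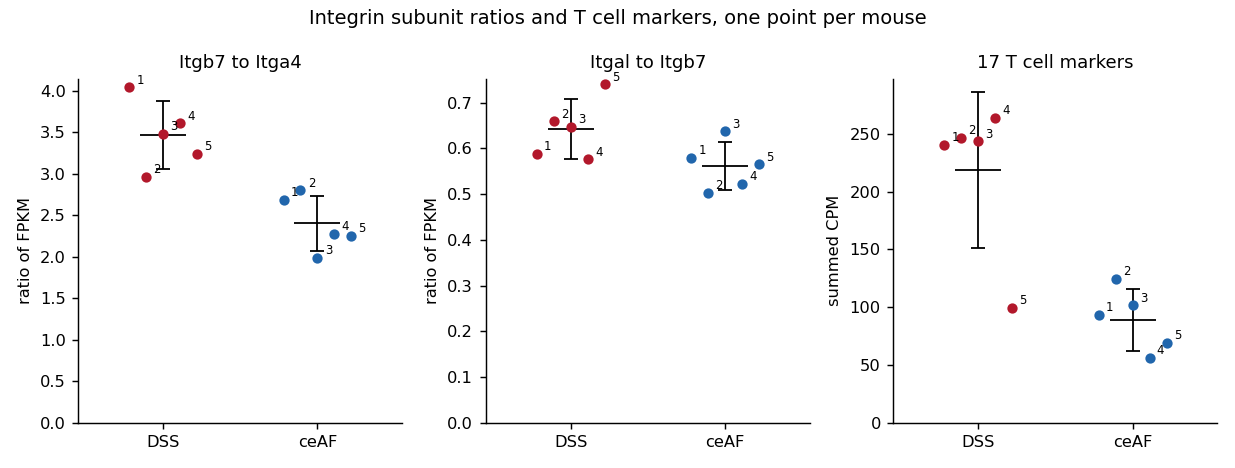
Ratio of FPKM of Itgb7 to Itga4 and of Itgal to Itgb7, and summed CPM of 17 T cell markers, in each of 5 DSS and 5 ceAF mice (numbered points) with the group mean ± SD. The Itgb7 to Itga4 ratio ran from 2.96 to 4.04 in DSS mice and from 1.99 to 2.80 in ceAF mice, while DSS-5 lay among the ceAF mice in the T cell markers.

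Itgae encodes the αE chain (CD103), which with β7 holds intraepithelial lymphocytes and some dendritic cells to E-cadherin of the epithelium. It was at 5.33, 10.9, 12.9, 9.09 and 7.20 CPM in DSS mice and at 4.96, 7.94, 7.57, 6.26 and 8.47 CPM in ceAF mice. Unlike the other integrin chains among the 10 genes, it was lowest of its group in DSS-1, which was close to ceAF-1. The log2 fold change was −0.37 (SE 0.247, 95% interval −0.91 to 0.18, adjusted p = 0.801 in the edgeR test, exact two-sided permutation p = 0.254), and it was −0.50 without DSS-1, where its unadjusted p was under 0.05, and −0.20 without DSS-3, where it was not. Its ligand gene Cdh1 was at 1320 ± 129 CPM in DSS and 1310 ± 255 CPM in ceAF mice (SD, n = 5 each), a log2 fold change of −0.01 (exact permutation p = 0.841). Haspin, a gene on the opposite strand within Itgae, had 1596 counts over the 10 mice, and whether counting used strand is not given in the sources used here, so reads of the pair may not be separated.

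Ccr9 encodes the receptor for Ccl25, a chemokine best known for drawing T cells to the small intestine. The DSS mice lay close together at 2.49, 2.05, 2.51, 1.92 and 2.04 CPM, whereas the ceAF mice were at 1.60, 2.34, 2.58, 0.954 and 0.770 CPM. ceAF-2 and ceAF-3 were at the level of the DSS group, and ceAF-4 and ceAF-5 had 16 and 14 counts. The log2 fold change was −0.42 (SE 0.331, 95% interval −1.15 to 0.31, adjusted p = 0.842 in the edgeR test, exact two-sided permutation p = 0.167). It was −0.23 without ceAF-5, −0.26 without ceAF-4 and −0.64 without ceAF-3. Ccl25 itself was at 9.86 ± 1.33 CPM in DSS and 10.3 ± 2.51 CPM in ceAF mice (SD, n = 5 each, log2 fold change 0.07, exact permutation p = 0.825). The deposited span of Ccr9 overlapped the genes Lztfl1, Slc6a20a and Gm10052 on the opposite strand, with 3757, 1688 and 1941 counts in all, so its low counts are uncertain for the same reason as those of Itgae.

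Markers of T cells and of macrophages and dendritic cells were lower in the ceAF mice too. All 17 T cell markers were lower in ceAF mice and 16 had an unadjusted p under 0.05 in the edgeR test, 0 of them at an adjusted p under 0.05. DESeq2 called 7 at that adjusted threshold, which were Lck, Thy1, Cd3d, Cd3g, Lat, Cd8a and Cd8b1. The median log2 fold change was −1.25, and 7 of the markers had been singled out by the study in these same mice, so that their direction is not independent evidence. The remaining 10 were all lower too, 9 of them at an unadjusted p under 0.05, with a median of −1.23. They were measured in the same mice and chosen with earlier results of these data known. Their direction is therefore not independent evidence either. Summed, the 17 markers were at 240.3, 247, 243.5, 264 and 99.8 CPM in DSS-1 to DSS-5 and at 93.5, 124.5, 102, 56.5 and 69.4 CPM in ceAF-1 to ceAF-5, with Trbc2 the most abundant at 13.2 FPKM and none at 0 in any mouse. DSS-5 was low in T cell markers as it was in Itgal, Itgb7 and Itga4, but the lowest ceAF mice were ceAF-4 and ceAF-5, where for these integrin genes they were ceAF-1 and ceAF-4.

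Of 11 tested macrophage and dendritic cell markers, 11 were lower (median −0.48) and 2 had an unadjusted p under 0.05 in the edgeR test, Adgre1 (−0.58) and C1qa (−0.62). Without DSS-1 the count was again 11 (median −0.31) with 0 under that threshold, Adgre1 and C1qa being at −0.51 and −0.52. Without DSS-1 and ceAF-1, a choice made after seeing the data, 9 were lower and 2 higher (median −0.15). The 12 markers summed to 212, 167, 172.5, 184 and 110.4 CPM in DSS-1 to DSS-5 and to 53.9, 142, 164, 106 and 143 CPM in ceAF-1 to ceAF-5. C1qb was the most abundant at 28.0 FPKM (−0.47), and Cd209a was at 0 in some mice. Over the 10 mice, Pearson's r with the mean log2 CPM of these markers and of the T cell markers was 0.90 and 0.90 for Itgb7, 0.86 and 0.88 for Itgal, 0.94 and 0.73 for Itga4, and 0.91 and 0.60 for Icam1. These values include the difference between groups and describe these libraries only.

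Relative to the mean log2 CPM of the 17 T cell markers in the same mouse, Itgal differed by −0.01 between ceAF and DSS mice and Itgb7 by 0.19. The SD within the DSS and ceAF groups was larger, at 0.317 and 0.534 for Itgal and 0.236 and 0.495 for Itgb7. Among ceAF mice, ceAF-1 was lowest and ceAF-5 highest for both genes, at 0.47 and 1.793 for Itgal and 0.023 and 1.372 for Itgb7. On the same scale Itga4 stood 0.72, Ccr9 0.73 and Itgae 0.95 log2 units higher in the ceAF group. With the 10 remaining markers as the reference, these differences were −0.16 for Itgal, 0.04 for Itgb7, 0.56 for Itga4, 0.57 for Ccr9 and 0.79 for Itgae. The groups overlapped for all 5 genes with the 17 markers, and no test was made. The part of T cell, macrophage or dendritic cell content in the lower Itgal and Itgb7 was not tested.

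The genes whose levels over the 10 mice were most like those of a member were searched among 14273 tested genes, by Pearson's r of log2 CPM. The pooled mice include the difference between groups, so r describes these libraries and carries no test. Itgb7 was closest to Grap2 (r = 0.989), Cd2 (0.985) and Cd48 (0.984), and Itgal to Itgb7 itself (0.982), Grap2 (0.973) and Ms4a6b (0.966). Itga4 was instead closest to Ikzf3 (r = 0.957), Pld4 (0.948) and Siglech (0.947). For the vascular ligands, Vcam1 was most like the B cell adaptor gene Bank1 (r = 0.966), then Cxcr4 and Pou2af1, Icam1 was most like Tfec (0.970), Cxcl16 and Pla2g2d, and Madcam1 was most like Gpx3 (0.939), Slc25a30 and Bdkrb1. Selp was most like Cxcl5 (r = 0.948), Ppm1f and Igfbp5, and Ccr9 like Rapgef2 (0.929), H2aw and Gbp5. Itgae was most like Gsdmc4, a gasdermin gene, then Tslp and Sybu, with the lowest best value of the 9 tested genes (0.858).

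Between genes, the order by median FPKM over the 10 mice was Itgb7 (3.62), Icam1 (2.90), Itgal (2.17), Vcam1 (1.72), Itgae (1.66), Itga4 (1.53), Madcam1 (1.29), Selp (0.240), Ccr9 (0.200) and Sele (0.065). The ranges of every pair of neighbours in this order overlapped. The order rests on the deposited exonic lengths, which were 13978 bases for Itga4, 10260 for Ccr9, 8870 for Vcam1 and 2770 for Itgb7. Whether the transcripts present had these lengths was not tested. The order also differed by group, since by DSS medians Itgal (3.82) was above Icam1 (3.33) and Madcam1 (2.18) was above Itgae (1.89), Vcam1 (1.79) and Itga4 (1.74). By ceAF medians it was the same as over all mice, with Madcam1 at 0.940. Itgb7 was above Icam1 in 8 mice and Vcam1 above Itgae in 5 of 10, whereas Madcam1 was above Selp in all 10.

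Other genes of the same steps were followed in lists. Of 16 tested genes for further vascular ligands and receptors, ceAF mice had less of 14 and more of 2 (median log2 fold change −0.24), and 3 of the lower ones had an unadjusted p under 0.05 in the edgeR test. These were Ackr1, the chemokine receptor that marks venules (1.99 ± 1.01 against 0.855 ± 0.195 CPM, SD, n = 5 each, log2 fold change −1.21), Icam2 (−0.93) and the integrin ligand Spp1 (−2.46), with adjusted p-values of 0.656 for Ackr1, 0.680 for Icam2 and 0.656 for Spp1 in that test. Spp1 had 14.0 CPM in DSS-1 and 0.350 to 2.27 CPM in the rest of that group. Without DSS-1 the log2 fold changes were −0.85 for Spp1, −0.67 for Icam2 and −0.96 for Ackr1, the only one still under that threshold, and the median of the list was −0.11. Without ceAF-1, 11 were lower and 5 higher (median −0.10), and Alcam, at 0.52, was higher at an unadjusted p under 0.05. Glycam1, the sulfated ligand of lymph node venules, was too low to be tested and reached 2.84 CPM in DSS-1.

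Among 12 genes for selectin ligands and their synthesis, 8 were lower and 4 higher (median −0.19), and the genes lower at an unadjusted p under 0.05 in the edgeR test included Spn (CD43) and Selplg (the P-selectin ligand PSGL-1). Selplg was at 20.6 ± 12.6 CPM in DSS and 8.09 ± 2.67 CPM in ceAF mice (SD, n = 5 each, log2 fold change −1.35, exact permutation p = 0.0317), and Spn at 15.3 ± 4.74 and 5.86 ± 2.40 CPM (−1.39, exact permutation p = 0.0238). The adjusted p-values of Spn and Selplg were 0.656 in the edgeR test, while DESeq2 called Spn. Without DSS-1 their log2 fold changes were −1.29 and −0.93. The median of the list was −0.10 without DSS-1, and without DSS-5 it was 0.03, with 5 lower and 7 higher. The most abundant gene of the list, the sialyltransferase St3gal4 at 146 FPKM, had a log2 fold change of −0.03.

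Of 12 other integrin chains, 10 were lower (median −0.22), and the β2 chain Itgb2 (−1.04) and the αM chain Itgam (−1.30) had an unadjusted p under 0.05 in the edgeR test (adjusted p = 0.656 and 0.717). Neither kept it without DSS-1, where their log2 fold changes were −0.70 and −0.24 and the list had 8 lower and 4 higher (median −0.11). The β1 chain Itgb1, the most abundant at 88.0 FPKM, had a log2 fold change of −0.21 (exact permutation p = 0.0714). Of 16 genes that switch integrins to the active state, 15 were lower (median −0.60) and 5 had an unadjusted p under 0.05, namely Skap1 (−1.46), Coro1a (−1.25), Rassf5 (−0.99), Dock2 (−0.86) and Cytip (−0.85), with adjusted p-values of 0.656 for the first 3 and 0.699 and 0.694 for the others in the edgeR test, while DESeq2 called Skap1. Without DSS-1 this was 2 of 16 with a median of −0.31, Skap1 (−1.40) and Coro1a (−0.84), and the others were at −0.65 for Rassf5, −0.50 for Dock2 and −0.44 for Cytip. Rap1b, a small GTPase and the most abundant gene of the list at 65.7 FPKM, had a log2 fold change of −0.13 (adjusted p = 0.873 in the edgeR test).

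Of 20 genes of the chemokine axes of homing, 16 were lower (median −0.56) and 6 had an unadjusted p under 0.05, all lower. Cxcr6, a receptor of tissue T cells, was at 8.72 ± 3.07 CPM in DSS and 3.30 ± 1.52 CPM in ceAF mice (SD, n = 5 each, log2 fold change −1.40, exact permutation p = 0.0159), and the lymphatic chemokine Ccl21a at 10 ± 8.66 and 3.42 ± 1.66 CPM (−1.55, exact permutation p = 0.0556). The others were Klf2 (−1.14), Cxcl12 (−0.54), Ccr2 (−0.76) and Cxcr3 (−0.90). The 6 had adjusted p-values of 0.656 (Cxcr6, Ccl21a, Klf2), 0.703 (Cxcl12, Ccr2) and 0.717 (Cxcr3) in the edgeR test, and Cxcr6, Klf2 and Cxcr3 were left at an unadjusted p under 0.05 without DSS-1 (list median −0.30), at −1.48, −0.60 and −0.98, so that Klf2, at 25.7 CPM in DSS-1, was nearer to 0. The log2 fold changes of the others were then −0.74 for Ccr2 and −0.48 for Cxcl12, about as large as with all mice, and −0.87 for Ccl21a. DESeq2 called Cxcr6. The most abundant gene of this list, 2610528A11Rik, which encodes the ligand of the colon homing receptor Gpr15, was at 395 FPKM with a log2 fold change of −0.33 (adjusted p = 0.898 in the edgeR test). It was highest in ceAF-1, at 641 CPM, without which the log2 fold change was −0.75 with an unadjusted p under 0.05. Retinoic acid, made by gut dendritic cells from vitamin A, imprints Ccr9 and the β7 integrin on T cells, and of 10 tested genes of its synthesis and receptors 7 were lower and 3 higher, with a median of −0.06 and 0 at an unadjusted p under 0.05 in the edgeR test. Without DSS-1 they were 4 lower and 6 higher, with a median of 0.16. The most abundant, the retinal dehydrogenase Aldh1a1 at 32.1 FPKM, had a log2 fold change of 0.61, and −0.68 without ceAF-1.

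Inflamed endothelium makes several of these ligands through NF-κB. Of 14 tested genes of that factor and its targets, none of them among the 10, 14 were lower in the ceAF group (median −0.47) and 4 had an unadjusted p under 0.05, which were Cxcl2 (−4.49), Rela (−0.32), Tnfaip2 (−1.74) and Traf1 (−0.77), with adjusted p-values of 0.656 for the first 3 and 0.664 for Traf1 in the edgeR test. Without DSS-1, 13 of 14 were lower with a median of −0.20 and 0 at an unadjusted p under 0.05. The log2 fold changes were then −1.49 for Cxcl2, −0.59 for Tnfaip2 and −0.46 for Traf1, and −0.26 for Rela, which was close to its value with all mice. The most abundant gene of the list, the inhibitor gene Nfkbia at 55 FPKM, was at −0.42, and at −0.12 without DSS-1. These are levels in bulk tissue and not in endothelium alone. The part of NF-κB in these differences was not tested. Neutrophil markers, 7 of 7 lower with a median of −3.98 and 6 at an unadjusted p under 0.05, had a median of −1.97 and 2 under that threshold without DSS-1. The 6 were Trem1 (−4.96), S100a9 (−5.15), Retnlg (−5.72), Cxcr2 (−3.94), S100a8 (−3.98) and Csf3r (−2.80), each with an adjusted p of 0.656 in the edgeR test. Without DSS-1 they were at −2.24, −2.62, −2.31, −1.07, −1.97 and −0.76, with Trem1 and S100a9 still under the unadjusted threshold. The most abundant neutrophil gene was S100a8 at 12.2 FPKM, and the summed markers of the ceAF mice were 2.29, 14.6, 14.97, 44.7 and 19.96 CPM against 1624, 16.4, 177, 20.4 and 70.3 CPM in DSS-1 to DSS-5.

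The remaining marker lists were those of lymphatic vessels, lymphoid follicles, epithelium and smooth muscle. Lymphatic markers were lower for 6 of 6 genes (median −0.79), with Ccl21a, the most abundant, and Pdpn (−1.11, adjusted p = 0.656 in the edgeR test) at an unadjusted p under 0.05, and Pdpn was at −0.60 without DSS-1. Of 5 tested follicle and venule markers 5 were lower (median −0.35), and 2 were lower without DSS-1 (median 0.19). Ltb (−1.01, adjusted p = 0.656 in the edgeR test) had an unadjusted p under 0.05 with and without DSS-1, and the most abundant, Cxcl13 at 21.3 FPKM, was at −0.12. Epithelial markers were lower for 4 and higher for 5 of 9 genes (median 0.07, Krt8 at 2170 FPKM with 0.14). Smooth muscle markers were lower for 6 of 6 (median −0.19, Actg2 at 197 FPKM with −0.32), and for 4 of 6 without DSS-1. None of the epithelial and smooth muscle markers had an unadjusted p under 0.05.

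Of the vascular genes, Madcam1, Vcam1, Icam1 and Selp were each lowest of the 10 mice in ceAF-1. The promoters of those in the reference table, all but Vcam1, are shown. Being lowest in ceAF-1 was not particular to these genes. Itga4 (8.09 CPM) and Itgae (4.96 CPM) were lowest there too, and Sele had 0 counts there, as in DSS-4 and DSS-5. The promoters shown were picked after the matches in all available promoters of the 10 genes had been counted. The matches are therefore a description and not a test. The RefSeq promoter table of GRCm38.p6 held 7 of the 10 genes, each as 250 bases before to 50 bases after the start of the gene. The letters GGAANNNCC, which many NF-κB sites contain, and their reverse complement GGNNNTTCC were searched, and a run such as the first of Icam1 can satisfy both. Matches were present in 18.5% of 32851 promoters of 300 bases, and 2 or more in 2.16%. Madcam1 (chr10:79664309-79664608, plus strand) and Icam1 (chr9:21015690-21015989, plus strand) held 2 each, Selp (chr1:164115014-164115313, plus strand) and Sele 1 each, and Itga4, Itgb7 and Ccr9 none in this window. The sequences read 5′ to 3′ along the gene, with capitals for the matches, which are letters found and not sites shown to be bound.
Madcam1: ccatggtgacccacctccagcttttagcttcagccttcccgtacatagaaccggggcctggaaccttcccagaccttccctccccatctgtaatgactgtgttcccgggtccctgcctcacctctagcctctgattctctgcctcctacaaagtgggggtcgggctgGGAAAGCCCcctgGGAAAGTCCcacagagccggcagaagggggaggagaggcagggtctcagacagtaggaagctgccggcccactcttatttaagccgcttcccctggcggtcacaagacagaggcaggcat
Icam1: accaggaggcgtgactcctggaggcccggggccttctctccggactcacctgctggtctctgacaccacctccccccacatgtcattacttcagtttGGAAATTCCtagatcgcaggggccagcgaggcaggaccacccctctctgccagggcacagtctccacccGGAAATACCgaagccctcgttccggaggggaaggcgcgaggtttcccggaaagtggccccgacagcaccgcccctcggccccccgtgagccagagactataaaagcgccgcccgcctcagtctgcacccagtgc
Selp: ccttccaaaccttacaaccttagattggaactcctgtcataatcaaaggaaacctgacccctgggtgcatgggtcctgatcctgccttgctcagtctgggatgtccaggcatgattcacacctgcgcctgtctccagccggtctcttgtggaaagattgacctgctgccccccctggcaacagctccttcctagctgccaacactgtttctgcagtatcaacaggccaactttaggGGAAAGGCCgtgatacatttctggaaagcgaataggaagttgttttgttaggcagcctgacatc
The matches of Madcam1 began 83 and 70 bases before the gene start, those of Icam1 153 and 84 bases and that of Selp 14 bases before it.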

How the data were processed

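Poly(A) RNA of 10 colons was sequenced, with groups taken from the sample titles. Per the submitters' processing notes reads were trimmed with cutadapt 1.9.1 and aligned with HISAT2 2.2.1; the counting program and genome build are not given in the sources used here. The authors deposited whole-number counts per gene and FPKM values. The deposited FPKM equalled count divided by length and library total within 0.005 in 100% of 244387 values. No per-sample column was left unmapped (0).

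From the counts, genes were kept with filterByExpr at a minimum count of 10 (16545 of 56691), scaled with TMM and tested, ceAF against DSS, with the quasi-likelihood test of edgeR 4.0.16 in R 4.3.3, two-sided, with Benjamini-Hochberg adjustment over all genes tested. Log2 CPM used a prior count of 1. Exact permutation tests ran over all 252 assignments of the mice. The fits were tested on simulated data. Within groups, 20 pairs of libraries were compared by chi-square of their counts per gene, and values of 14.7 to 149 showed no repeated library. Alternatives were other scalings, filters, a replicate block, a robust fit, DESeq2 1.42.0, limma 3.58.1 with voom, and each mouse left out.

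The 10 genes and all gene lists were chosen with earlier results of these data known. Named genes were the 10, up to 6 per list with the smallest unadjusted p under 0.05, the most abundant tested gene per list, the binding partners Cdh1, Itgb1, Itgb2, Ccl25, Selplg and Glycam1, and the 3 genes most correlated with each of the 9 tested genes of the 10 (all but Sele), leaving out unnamed genes and symbols starting with Gm or ending in Rik. A gene that this rule takes is not reported here. Genes named for overlapping a member were outside that rule, and Alcam, Ccl5, Cd3d, Cd209a and the markers of the small intestine other than Fabp2 were too, named after their values were seen. The list symbols Cd99, Gpr15lg and Fdcsp had no row of that name.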

Additional observations from a re-analysis of the deposited data

Results flagged for a closer look

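In 20 groups of 5 values (10 genes in each group of mice, log2 CPM), 3 held a mouse far from the others of its group, where the gap to the nearest mouse was compared with the range of the group (critical value 0.71). Chance gives this in about 1 in 20 groups. ceAF-1 was the lowest ceAF mouse for Madcam1, with 2 counts, and its gap was 0.764 of the range. DSS-1 was the highest DSS mouse for Vcam1, at 31.6 CPM, with a gap of 0.76 of the range. DSS-5 was the lowest DSS mouse for Itga4, at 12.2 CPM, with a gap of 0.772 of the range.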

How the results depend on the processing

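For the 9 tested genes and 19 alternatives, the direction and the side of an adjusted p of 0.05 stayed as reported in 169 of 171 values. The exceptions were both for Vcam1, whose log2 fold change of −0.32 became 0.0539 with limma voom and 0.13 without DSS-1 and ceAF-1, the latter chosen after seeing the data; the cause was not tested. The number of genes at an adjusted p under 0.05 was 0 in the edgeR test and 31 with DESeq2 (27 lower in ceAF), and leaving out each mouse in turn gave 0 to 3, the 3 being Cd3g, Lat and Ccl5 without DSS-5. Genes at an unadjusted p under 0.05 numbered 1146, and 2452 with limma voom, 1733 with no filter on low counts, and 712 (without DSS-1) to 1872 (without ceAF-1) when each mouse was left out. With the replicate number as a block there were 694, and the block called 0 genes at an adjusted p under 0.05. Mice with the same number share only a number, since the correlations of their deviations were −0.249, −0.136, −0.004, −0.159 and 0.286. At an unadjusted p under 0.05, Icam1 was called in the edgeR test without ceAF-3 and Itgae without DSS-1. The Itgb7 to Itga4 ratio was lower in ceAF mice in every alternative run, with a log2 difference of −0.52 without DSS-1 and ceAF-1. Depth limits Sele, with at most 10 counts in a mouse, and Ccr9, with 14 to 47. It also limits Selp, with 1 count in ceAF-1 and 3 in DSS-4, and Madcam1, with 2 in ceAF-1.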

Other observations

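B cell markers differed in direction with 1 mouse. Of 9 markers, 9 were lower in the ceAF group (median log2 fold change −0.65) with all mice, and 9 were higher without DSS-1 (median 0.61), with 0 at an unadjusted p under 0.05 in the edgeR test in both cases. Their summed level was 275, 47.0, 35.6, 40.2 and 45.1 CPM in DSS-1 to DSS-5 and 10.3, 49.4, 95.1, 14.3 and 134.7 CPM in ceAF-1 to ceAF-5. Lymphatic endothelium markers were lower for 6 of 6 genes with all mice (median −0.79) and for 6 of 6 without DSS-1 (median −0.60), with 2 and 0 at an unadjusted p under 0.05.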
